A study of Mus musculus with 42 samples.

Results

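The epithelial-mesenchymal transition (EMT) genes described here are 8 protein-coding mouse genes: Snai1, Zeb1, Zeb2, Cdh1, Cdh2, Vim, Rhoc and Epcam. They were chosen by symbol, and all 8 had a row in both count tables, among 18825 genes in experiment 1 and 19866 in experiment 2. All 8 also passed the filter on low counts in both experiments. The choice of the set used a measured value: Snai1 had been seen to be lower in the input RNA of Ago2-/- cells. The genes lie (RefSeq, GRCm38.p6) at chr2:167538195-167542814 (Snai1), chr18:5591327-5775468 (Zeb1), chr2:44983512-45117442 (Zeb2), chr8:106603350-106670247 (Cdh1), chr18:16588877-16809246 (Cdh2), chr2:13574311-13582826 (Vim), chr3:104789034-104794459 (Rhoc) and chr17:87635979-87651127 (Epcam). The contrast that chose the set, Ago2-/- against tagged input, is therefore given below as a description without a test for every gene.

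The study measured which RNAs come down with Tnrc6a (also called GW182), the protein that links microRNA-loaded Argonaute to mRNA deadenylation and translational repression. Mouse embryonic stem (ES) cells were lysed, the lysate was pulled down on anti-HA beads, and RNA from the lysate (input) and from the beads (IP) was sequenced. The parental cells were of strain 129S6/SvEvTac, carried a construct labelled yGlob [GFP_5xT71BS], were stably transfected with FLAG-Cas9 and a blasticidin marker, and were grown on gelatin with serum and LIF. All groups carry the label GFP_5xT71BS. The untagged control has no further change. The tagged cells carry HA-AVI-Tnrc6a, the Trim71KO cells HA-AVI-Tnrc6a with Trim71-/-, and the Ago2KO cells HA-AVI-Tnrc6a with Ago2-/-. Experiment 1 had 18 libraries (untagged, tagged and Trim71KO) and experiment 2 had 24 (the same with Ago2KO). Each genotype and fraction had 3 libraries from replicate dishes, and the main fits treated input and IP libraries as unpaired. The number of clones behind a genotype is not given in the sources used here, and p-values measure only the spread between dishes.

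EMT is the switch by which epithelial cells loosen E-cadherin junctions and take on a motile, mesenchymal form. Snai1, Zeb1 and Zeb2 are zinc-finger repressors that bind E-box sequences at epithelial genes such as Cdh1. Members of the miR-200 family repress Zeb1 and Zeb2, which in turn repress the miR-200 genes. Mouse ES cells in serum and LIF are themselves epithelial in character, with E-cadherin holding their colonies together, and their most abundant microRNAs belong to the miR-290 and miR-302 clusters, for which Rhoc is a described target.

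The mature sequences of these microRNAs are shown because their seeds define the families known to act on members of the set. They were taken from RefSeq (GRCm38.p6), where 14 of 15 names looked up were matched (miR-302a-3p was not), and capitals mark the seed, bases 2 to 8. Small RNAs and target sites in the mRNAs were not analysed here, so no value below assigns a transcript to a microRNA.
The miR-200 family has a pair of seeds. The seed AACACUG is shared by the first of these groups:
miR-200a-3p (chr4:156054911-156054932, minus strand): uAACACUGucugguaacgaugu
miR-141-3p (chr6:124717917-124717938, minus strand): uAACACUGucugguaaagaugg
The seed AAUACUG, which differs from it within the seed, is shared by the other group:
miR-200b-3p (chr4:156055685-156055706, minus strand): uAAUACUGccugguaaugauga
miR-200c-3p (chr6:124718324-124718346, minus strand): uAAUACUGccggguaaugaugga
miR-429-3p (chr4:156053916-156053937, minus strand): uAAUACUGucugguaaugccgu
The seed AAGUGCU is that of the ES cell clusters:
miR-291a-3p (chr7:3218968-3218989, plus strand): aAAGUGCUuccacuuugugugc
miR-294-3p (chr7:3220691-3220712, plus strand): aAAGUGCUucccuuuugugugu
miR-295-3p (chr7:3220815-3220837, plus strand): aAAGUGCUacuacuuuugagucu
miR-302b-3p (chr3:127545275-127545297, plus strand): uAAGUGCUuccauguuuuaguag
miR-302d-3p (chr3:127545665-127545687, plus strand): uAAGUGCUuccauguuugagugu
The seed of miR-34a, described as a repressor of Snai1, shares none of these:
miR-34a-5p (chr4:150068473-150068494, plus strand): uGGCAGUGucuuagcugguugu

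Library totals ran from 12587257 to 23657840 counts in experiment 1 and from 16296447 to 21026552 in experiment 2. In the pulldown, Tnrc6a RNA itself was recovered with a tag-specific log2 enrichment of 8.34 and 7.90 in experiments 1 and 2. Ago2 RNA in Ago2KO input differed from tagged input by -1.12 (log2, SE 0.10). The libraries labelled Trim71KO did not hold less Trim71 RNA (log2 0.23 and 0.42 against tagged input). The log2 IP over input of Trim71 RNA in Trim71KO cells differed from that in tagged cells by -1.75 and -1.02. It was also lower in Ago2KO cells of experiment 2, at 0.64 against 1.22 in tagged and 0.20 in Trim71KO cells. A count over the whole gene does not check a small deletion. Ago2 varied widely among the tagged input libraries of experiment 1 (358, 179 and 255 CPM, which is counts scaled to a library of 1000000). All 12 ES cell markers were measured in both experiments, with summed input levels of 7894 to 11101 CPM. In experiment 1 the sums were 7893.8 to 8119.9 CPM in untagged, 8176.1 to 8941.8 in tagged and 9597.5 to 9857.1 in Trim71KO input. In experiment 2 they were 9035.6 to 9346.8 CPM in untagged and 9694.6 to 9849.0 in tagged input. Trim71KO input of experiment 2 held 10974.4 to 11100.6 CPM and Ago2KO input 10531.5 to 10704.5 CPM. In bulk RNA, fewer cells of a type and less RNA per cell cannot be told apart.

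In these ES cells the epithelial genes Cdh1 and Epcam were abundant, as were Vim and Rhoc, and the repressors and Cdh2 were scarce. Levels were compared between genes as CPM per kilobase of the length in the tables. In tagged input of experiment 1 the order was Cdh1 at 42.8 ± 3.7 (SD, n = 3), Vim at 36.2 ± 1.3, Rhoc at 34.0 ± 4.4 and Epcam at 29.3 ± 5.3. Then, after a gap, came Snai1 at 1.81 ± 0.25, Zeb1 at 1.59 ± 0.33, Cdh2 at 0.419 ± 0.096 and Zeb2 at 0.0694 ± 0.0133 CPM per kilobase. The libraries of Vim and Rhoc, of Rhoc and Epcam, and of Snai1 and Zeb1 overlapped there, so these neighbours had no order beyond their spread. In tagged input of experiment 2 Vim led at 42.9 ± 0.2, above Cdh1 at 37.2 ± 2.7 CPM per kilobase, and Zeb1 lay above Snai1 (1.96 ± 0.10 against 1.69 ± 0.10), while Rhoc and Epcam overlapped. Cdh1 encodes E-cadherin and Epcam an epithelial adhesion molecule, whereas Vim encodes the intermediate filament vimentin and Cdh2 encodes N-cadherin.

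**Figure D1:**
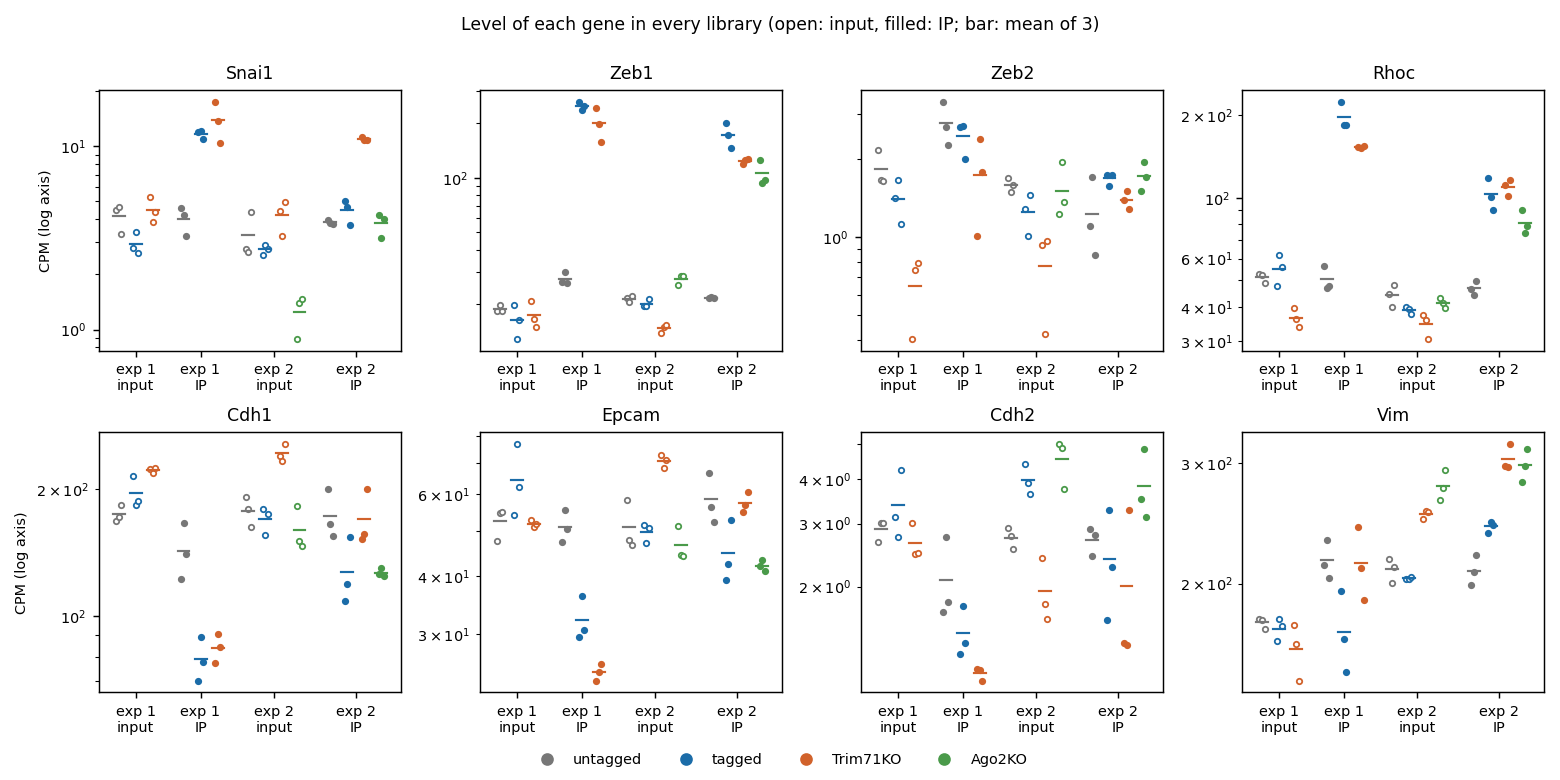
Level of each of the 8 genes in every library in CPM on a log axis, for input (open) and IP (filled) of each genotype and experiment, with a bar at the mean of 3 dishes. Zeb1 in tagged IP lies at 146 to 262 CPM in both experiments, above all untagged IP libraries (21.6 to 30.1 CPM).

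Zeb1 was the member most strongly recovered with Tnrc6a. In experiment 1, Zeb1 stood at 19.8, 12.9 and 16.3 CPM in the tagged input libraries and at 262, 235 and 250 CPM in the tagged IP libraries. Untagged IP libraries held 26.5, 30.1 and 26.2 CPM, far below the tagged IP and not overlapping it. In experiment 2 the tagged input held 19.5, 19.6 and 21.3 CPM of Zeb1 and the tagged IP 199, 172 and 146 CPM, again clear of the untagged IP (21.7, 22.0 and 21.6 CPM). Taken as IP over input, Zeb1 was 15.3-fold in tagged cells and 1.47-fold in untagged cells of experiment 1, and 8.54-fold and 1.02-fold in experiment 2. Zeb1 lay at the 97.5th and 99.1st percentile of all genes tested by tag-specific enrichment, defined as log2 IP over input of tagged cells less that of untagged cells.

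Tag-specific enrichment was tested for all genes with edgeR's quasi-likelihood F test, and genes with a Benjamini-Hochberg adjusted p below 0.05 were called. In experiment 1, 5 of 8 members were called, where 56.9% of all 18772 genes tested were called. Among the repressors, Zeb1 (log2 3.38, SE 0.21, adjusted p = 1.39e-12) and Snai1 (2.05, SE 0.28, adjusted p = 1.65e-06) were enriched, and Zeb2, the scarcest member, was not called (0.23, SE 0.40). Rhoc, which encodes a small GTPase of cell migration, was enriched (1.87, SE 0.15, adjusted p = 1.26e-10). The epithelial genes Cdh1 (-1.02, SE 0.15) and Epcam (-0.96, SE 0.16) were depleted from the pulldown. Cdh2 (-0.72, SE 0.34) and Vim (-0.32, SE 0.15) were not called. Vim was called without tagged IP replicate 1 (-0.43).

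In experiment 2, 3 of 8 members were called by the same test, against 27.7% of 19778 genes. Zeb1 (log2 3.07, SE 0.15) and Rhoc (1.33, SE 0.13) were enriched, as was Vim by a small margin (0.26, SE 0.08). The Vim call rests on the scaling: with library size alone, which moved the median of all genes from -0.03 to -0.24, it was 0.05 and not called. Snai1 (0.48, SE 0.27), Zeb2 (0.80, SE 0.38), Cdh1 (-0.38, SE 0.16), Epcam (-0.35, SE 0.14) and Cdh2 (-0.70, SE 0.37) were not called. Cdh1 and Epcam were called as depleted, making 5 members, by DESeq2 and without untagged IP replicate 3 or tagged IP replicate 3. They were also called with the replicate number as a block (-0.39, adjusted p = 0.0484, and -0.36, adjusted p = 0.0379) and with IP and input of the same number as a block (adjusted p = 0.0204 and 0.0147), and the numbers paired tagged input with tagged IP in this experiment. Library size alone called both Cdh1 and Epcam but not Vim, and RLE size factors added Epcam, with 4 members called under each scaling. Zeb2 was called without untagged IP replicate 2 (1.13), and Epcam also without untagged input replicate 1 (-0.46).

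**Figure D2:**
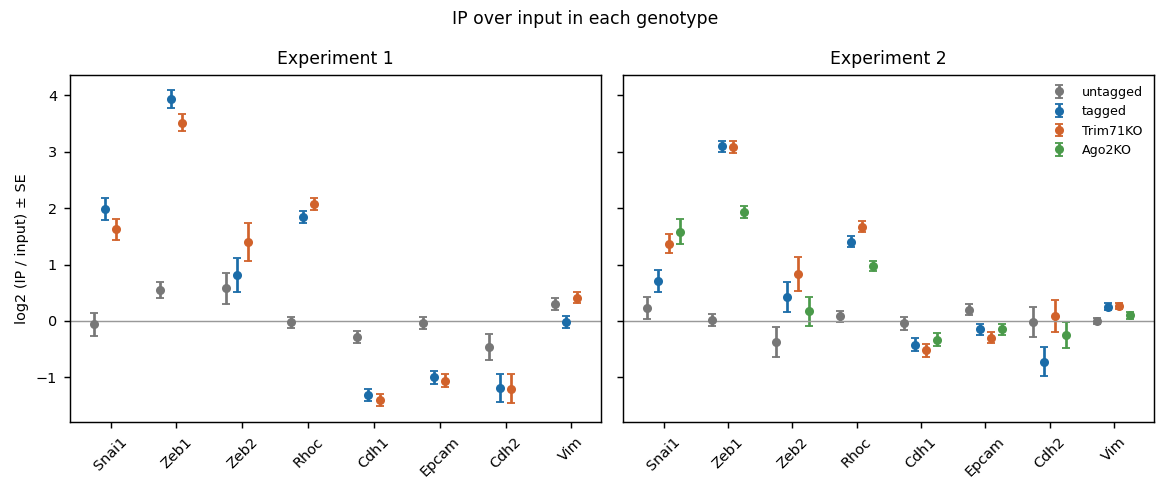
Log2 ratio of IP to input (± SE of the fit, 3 libraries per fraction) for each gene and genotype, with 1 panel per experiment. Zeb1 in Ago2KO cells lies at 1.93, between the tagged value of 3.09 and the untagged value of 0.02.

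Snai1 enrichment differed between the experiments. Its tagged IP libraries held 11.9, 12.1 and 10.99 CPM in experiment 1 but 5.04, 4.68 and 3.73 CPM in experiment 2. Tagged input overlapped between the experiments, at 2.77, 3.38 and 2.63 CPM and at 2.57, 2.88 and 2.76 CPM. In experiment 2 the tagged IP overlapped the untagged IP (3.95, 3.82 and 3.75 CPM), whereas in experiment 1 it did not (4.59, 4.23 and 3.22 CPM). A fit of all libraries with the interaction of experiment and tag-specific enrichment, a comparison added after seeing the data, gave a Snai1 difference of 1.67 (log2, experiment 1 minus experiment 2, SE 0.41, edgeR adjusted p = 0.00206). Of all genes, 28.5% were called in that interaction, so a difference between experiments was common.

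The same fit called Rhoc (0.65, SE 0.20) and Vim (-0.47, SE 0.16) as different between experiments, but not Zeb1 (0.41, SE 0.27), Cdh1 (-0.53, SE 0.23, adjusted p = 0.0765) or Epcam (-0.50, SE 0.21, adjusted p = 0.068). The Rhoc difference lost its call in a fit restricted to tagged and untagged libraries (0.55). The Vim difference lost its call with library size alone (-0.33) and without untagged IP replicate 2 (-0.42) or tagged IP replicate 3 (-0.38) of experiment 1. The count of 3 members rose to 5, with Cdh1 and Epcam added, with the replicate block and without tagged input replicate 3 or tagged IP replicate 2 of experiment 1 or without untagged IP replicate 1 or tagged IP replicate 1 of experiment 2. Cdh1 gained a call in 5 of the 24 fits that left out a library (-0.65 to -0.62) and Epcam in 6 (-0.62 to -0.56). The IP levels alone, also compared after seeing the data, were higher in tagged than in untagged cells for Zeb1 (log2 3.18 and 2.98) and Rhoc (1.97 and 1.14) and lower for Cdh1 (-0.85 and -0.45) and Epcam (-0.66 and -0.38) in experiments 1 and 2, each called by edgeR (6 and 5 members called, against 68% and 44.8% of genes).

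Rhoc is the other member with clear recovery in both experiments. In experiment 1 it stood at 47.6, 61.7 and 55.7 CPM in tagged input and at 224, 184 and 184 CPM in tagged IP, with 56.6, 46.9 and 47.7 CPM in untagged IP. In experiment 2 tagged IP held 119, 101 and 90.3 CPM and untagged IP 46.6, 44.2 and 49.5 CPM. These groups did not overlap in either experiment. Expressed as IP over input, Rhoc was 3.59-fold and 2.65-fold in tagged cells, against 0.982-fold and 1.06-fold in untagged cells.

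**Figure D3:**
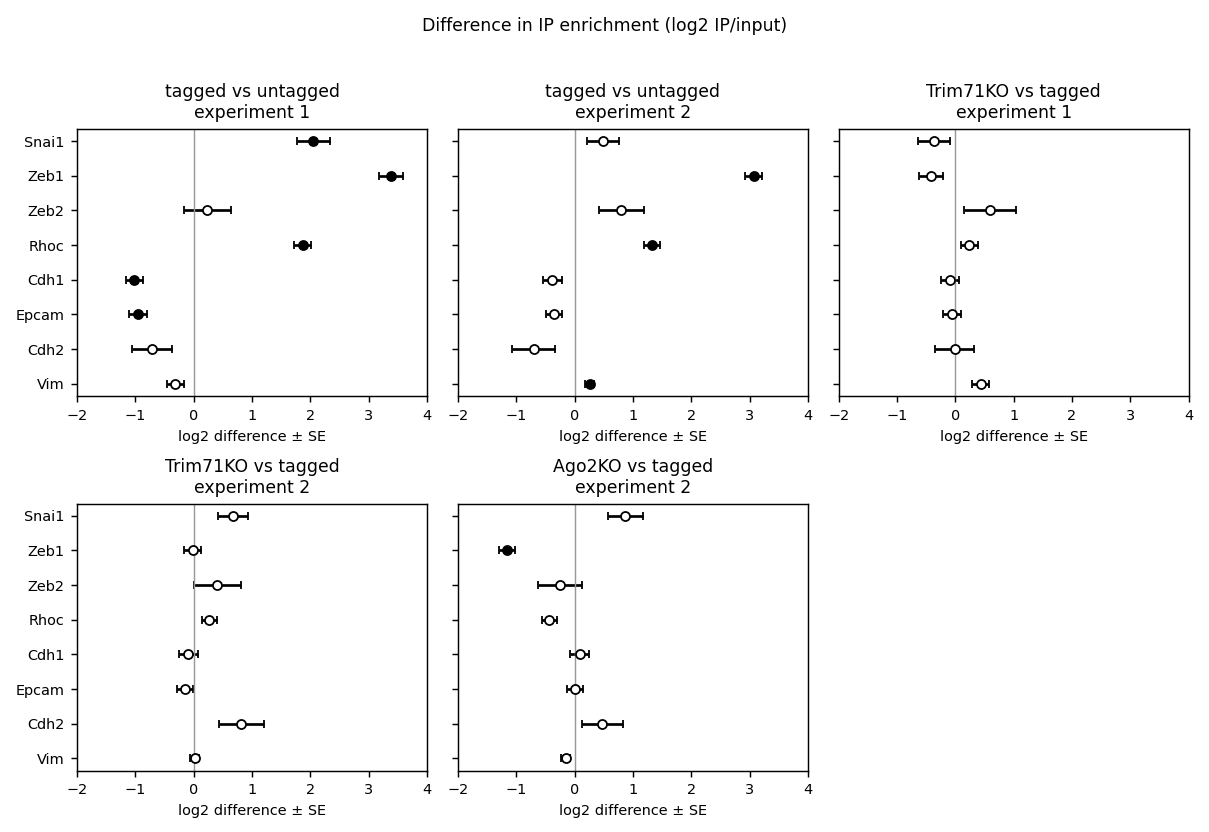
Difference in log2 IP/input between genotypes for each gene (± SE), with filled points where the edgeR adjusted p was below 0.05; the x axis is the same in all panels. Zeb1 at -1.16 is the only filled point in the Ago2KO panel, and no point is filled in the Trim71KO panels. The open Snai1 point in the Ago2KO panel is a description without a test.

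The next comparison asks whether recovery with Tnrc6a depends on Ago2, the Argonaute protein that carries microRNAs and cleaves fully paired targets. Zeb1 recovery was lower in Ago2KO cells. Zeb1 stood at 126, 94.0 and 97.0 CPM in Ago2KO IP against 199, 172 and 146 CPM in tagged IP, so the groups did not overlap. Its IP over input fell from 8.54-fold to 3.81-fold and remained above the untagged 1.02-fold. The Ago2-dependent enrichment of Zeb1 was -1.16 (log2, SE 0.14, edgeR adjusted p = 4.15e-06), and it ranged from -1.31 to -1.06 when each of the 12 libraries was left out in turn.

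Snai1 apart, Zeb1 was the 1 of 7 members called in Ago2-dependent enrichment, against 4.16% of all genes. This contrast contains the Ago2KO and tagged input libraries that chose the set. In the IP libraries alone, which the choice did not use, Zeb1 was also lower (-0.70, SE 0.09, adjusted p = 4.32e-06). Rhoc had an Ago2-dependent enrichment of -0.43 (SE 0.13, adjusted p = 0.0624). It was called by DESeq2 (-0.45, adjusted p = 0.031), with the replicate number as a block (-0.43, adjusted p = 0.027), with IP and input of the same number as a block (-0.43, adjusted p = 0.0206), and without tagged IP replicate 3 (-0.55) or Ago2KO IP replicate 1 (-0.51).

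Rhoc stood at 90.0, 74.3 and 78.9 CPM in Ago2KO IP, just under the tagged IP libraries, and its IP level was lower by test (-0.35, SE 0.09, adjusted p = 0.00777). It was no longer called in a fit restricted to the tagged and Ago2KO IP libraries (-0.34, adjusted p = 0.10) and without tagged IP replicate 1 (-0.26) or Ago2KO IP replicate 2 (-0.28). The Vim IP level was higher in Ago2KO (0.30, SE 0.06), which makes 3 of 8 members called in IP level, against 16.4% of genes. Cdh2 IP stood at 0.67 (SE 0.26, adjusted p = 0.0795) and was called without tagged IP replicate 2 (0.97). Cdh1 (0.00, SE 0.12), Epcam (-0.09, SE 0.10) and Zeb2 (0.03, SE 0.26) were not called in IP level.

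The Snai1 values in Ago2KO input are those that chose the set. Ago2KO input held 0.891, 1.40 and 1.46 CPM of Snai1, below each tagged input library (2.57, 2.88 and 2.76 CPM). The fitted input difference was -1.11 (log2, SE 0.23), with a range of -1.22 to -0.94 over the fits that left out a library. In the same input contrast Zeb1 differed by 0.46, Vim by 0.45, Zeb2 by 0.28, Cdh2 by 0.19, Rhoc by 0.08, Cdh1 by -0.09 and Epcam by -0.09, all given without a test (6.96% of all genes were called there). The IP level of Snai1, in libraries the choice did not use, was not called in Ago2KO: it was 4.21, 3.17 and 4.00 CPM in Ago2KO and 5.04, 4.68 and 3.73 CPM in tagged IP, which overlap (-0.23, SE 0.19, adjusted p = 0.45). The Snai1 IP over input was 2.99-fold in Ago2KO and 1.63-fold in tagged cells. Its Ago2-dependent enrichment of 0.87 (log2) is given without a test, since the input libraries in it chose the gene.

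The Trim71 comparison asks whether recovery depends on Trim71, an RNA-binding protein of stem cells that silences mRNAs. No member was called in Trim71-dependent enrichment by edgeR, in either experiment, against 3.74% and 1.49% of genes; 1 and 2 members had an unadjusted p below 0.05, and DESeq2 called 0 in both. Zeb1 enrichment differed by -0.42 (log2, SE 0.20) and -0.02 (SE 0.14) in experiments 1 and 2, and Rhoc by 0.24 (SE 0.15) and 0.26 (SE 0.13). Snai1 differed by -0.37 (SE 0.27) and 0.67 (SE 0.26, adjusted p = 0.202), values of opposite sign whose interaction was not called (-1.04, SE 0.38, adjusted p = 0.201, against 0.0967% of genes called). That Snai1 interaction was called without Trim71KO IP replicate 1 of experiment 1 (-1.24). Vim, at 0.43 (SE 0.15) in experiment 1, was called without tagged IP replicate 1 (0.55) or Trim71KO IP replicate 3 (0.61). The other members lay between -0.15 and 0.81.

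Ago2KO and Trim71KO were each compared with the same tagged libraries, so the values share their controls. Side by side, Zeb1 enrichment differed from tagged by -1.16 in Ago2KO and by -0.02 in Trim71KO, and Rhoc by -0.43 and 0.26. The direct comparison of the knockouts, which does not use the tagged libraries, put Zeb1 enrichment higher in Trim71KO than in Ago2KO by 1.15 (log2, SE 0.14, edgeR adjusted p = 2.68e-06). Rhoc was higher there by 0.70 (SE 0.13, adjusted p = 0.000551), and these were the 2 members called, against 11.8% of genes. The Ago2KO input libraries enter that contrast too, so Snai1 is left without a test there.

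The levels of the set in Trim71KO input differed from tagged input in both experiments, but partly in other genes. In experiment 1, 4 of 8 members were called, against 34% of all genes. Snai1 was higher, at 5.28, 3.88 and 4.38 CPM against 2.77, 3.38 and 2.63 CPM in tagged input (log2 0.61, SE 0.21, adjusted p = 0.0249). Zeb2 was lower (-1.06, SE 0.34), at 0.406, 0.749 and 0.797 CPM against 1.42, 1.66 and 1.13 CPM. Rhoc was lower (-0.60, SE 0.11), at 39.6, 36.0 and 33.6 CPM, each under the lowest tagged input library of 47.6 CPM. Epcam was lower by test (-0.31, SE 0.11), at 52.7, 51.1 and 51.7 CPM against 54.1, 76.8 and 62.0 CPM.

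Of these, only Rhoc kept its call in each fit that left out a library. The count fell to 1 without Trim71KO input replicate 1 and to 2 without tagged input replicate 2 or Trim71KO input replicate 3. Epcam was -0.16 without tagged input replicate 2, its highest library. It lost its call without any 1 of the 3 Trim71KO input libraries, with library size alone, and with only the groups compared. Snai1 lost its call without tagged input replicate 1 or 3 or Trim71KO input replicate 1 or 3 (0.49 to 0.62), and Zeb2 lost its call without tagged input replicate 2 (-0.91) or Trim71KO input replicate 1 (-0.86).

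In experiment 2, 6 of 8 members were called in Trim71KO input, against 27.2% of genes. Cdh1 was higher, at 241, 233 and 257 CPM against 180, 156 and 175 CPM in tagged input (log2 0.52, SE 0.11, adjusted p = 0.00114). Epcam was higher, at 72.6, 68.4 and 70.9 CPM against 51.6, 47.1 and 50.8 CPM (0.50, SE 0.10, adjusted p = 0.000241). Snai1, the repressor, was higher too, at 4.42, 3.22 and 4.98 CPM against 2.57, 2.88 and 2.76 CPM (0.62, SE 0.19, adjusted p = 0.0156), as was Vim (0.31, SE 0.06). Zeb1 was lower, at 13.9, 14.9 and 15.3 CPM against 19.5, 19.6 and 21.3 CPM (-0.45, SE 0.11, adjusted p = 0.00278), and so was Cdh2 (-1.03, SE 0.26), at 2.41, 1.79 and 1.63 CPM against 4.39, 3.90 and 3.63 CPM. For each of these genes the Trim71KO and tagged input libraries did not overlap. These genes were already picked by being called, so the separation is a description and no further support. Snai1 lost its call without tagged input replicate 1 (0.58) or Trim71KO input replicate 1 (0.59) or 3 (0.49); the other calls held in each of those fits.

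Against tagged input, Snai1 was thus higher in Trim71KO input by nearly equal amounts in the experiments. The difference of those effects was -0.01 (log2, SE 0.28). In each experiment the Snai1 call was lost in some fits that left out a library. The Trim71KO libraries overlapped untagged input, which held 3.3 to 4.7 CPM of Snai1 in experiment 1 and 2.7 to 4.4 CPM in experiment 2. Against tagged input, Epcam moved in opposite directions. In experiment 1 its Trim71KO libraries lay within the range of untagged input (47.7 to 54.9 CPM). In experiment 2 they lay above untagged input (46.7 to 58.1 CPM). The difference of the Epcam effects was -0.81 (SE 0.15, edgeR adjusted p = 9.88e-05). Vim differed by -0.41 (SE 0.12, adjusted p = 0.00909). Zeb1 (0.56, SE 0.20, adjusted p = 0.0409) and Rhoc (-0.42, SE 0.15, adjusted p = 0.0338) also differed, so 4 of 8 members were called in that interaction by edgeR, against 22.8% of genes. Only 2 were called with library size alone, and 2 without tagged input replicate 2 of experiment 1 or without tagged replicate 3, Trim71KO replicate 1 or Trim71KO replicate 2 of experiment 2. Zeb1 and Rhoc were the unsteady members: Zeb1 lost its call in 7 of the 12 fits that left out a library (tagged replicates 2 and 3 and Trim71KO replicate 1 of experiment 1, and tagged replicates 2 and 3 and Trim71KO replicates 1 and 2 of experiment 2; 0.41 to 0.57). Rhoc lost it in 6 of 12 (tagged replicate 2 and Trim71KO replicates 2 and 3 of experiment 1, and tagged replicate 3 and Trim71KO replicates 1 and 2 of experiment 2; -0.41 to -0.33).

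**Figure D4:**
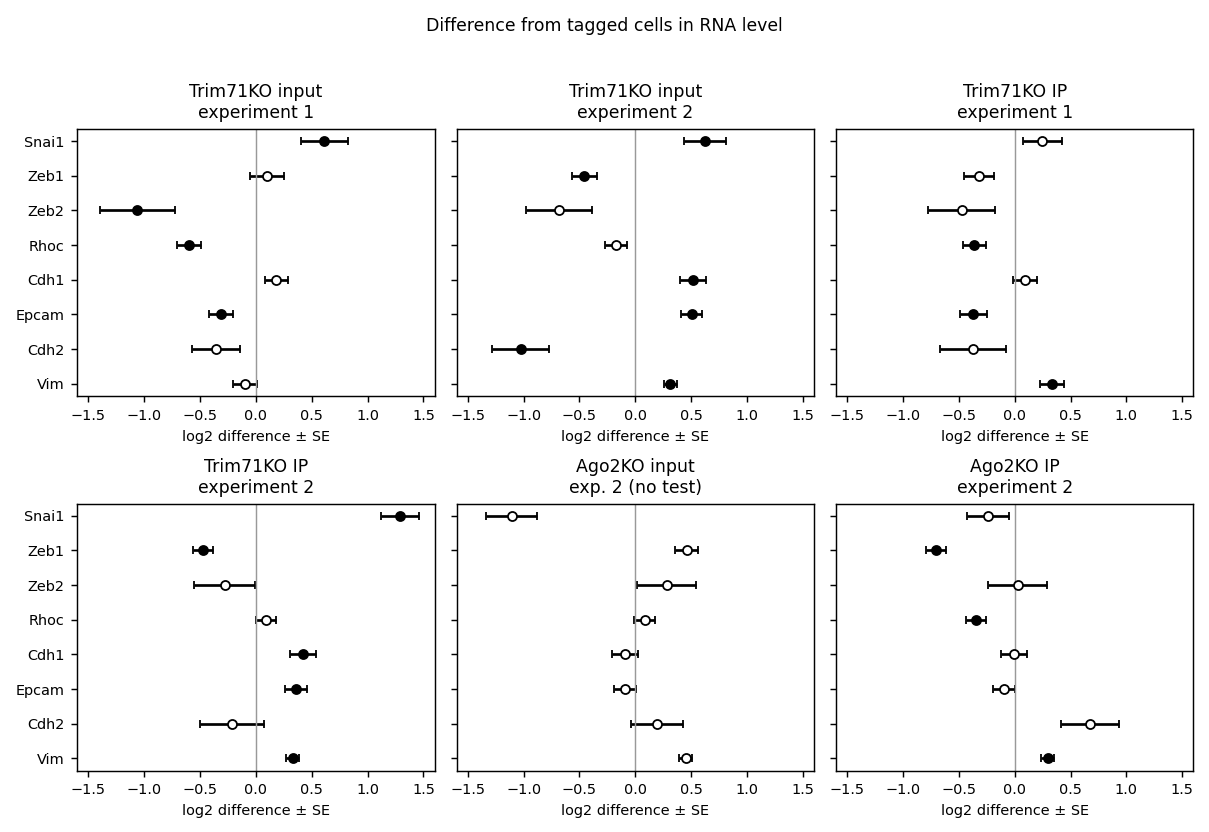
Difference in RNA level from tagged cells for each gene (log2, ± SE) in input and IP, with filled points where the edgeR adjusted p was below 0.05; the Ago2KO input panel is drawn without a test. Epcam in Trim71KO input lies at -0.31 in experiment 1 and at 0.50 in experiment 2, and Snai1 at 0.61 and 0.62.

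In Trim71KO IP of experiment 2, Snai1 showed the largest difference of the set. It stood at 11.3, 10.7 and 10.8 CPM against 5.04, 4.68 and 3.73 CPM in tagged IP (log2 1.29, SE 0.17, adjusted p = 1.71e-06), at the 98.5th percentile of all genes. Cdh1 (0.42), Epcam (0.36) and Vim (0.33) were also higher and Zeb1 lower (-0.47), which makes 5 of 8 members called, against 33.4% of genes. Cdh1 lost its call with only the groups compared (0.41) and without Trim71KO IP replicate 3 (0.28), the highest of its 3 libraries. Cdh2 was called without that library (-0.80).

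In Trim71KO IP of experiment 1, 3 of 8 members were called, against 35.4% of genes. They were Vim (0.33, SE 0.10), Rhoc (-0.36, SE 0.10) and Epcam (-0.37, SE 0.12). None of the 3 was called in a fit of the tagged and Trim71KO IP libraries alone, 1 was called with library size alone, and 1 without Trim71KO IP replicate 2. Vim lost its call without tagged IP replicate 3 (0.25). Rhoc lost its call without tagged IP replicate 1 (-0.26), Trim71KO IP replicate 2 (-0.28) or Trim71KO IP replicate 3 (-0.28), and Epcam without tagged IP replicate 2 (-0.27) or any 1 of the Trim71KO IP libraries (-0.32 to -0.29). Snai1 (0.25, SE 0.17) was called without Trim71KO IP replicate 3 (0.50), and Zeb1 (-0.32, SE 0.13) without Trim71KO IP replicate 1 (-0.43) and with the replicate block (-0.33).

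Besides the ES cell markers, several summed markers of other cell types differed in Trim71KO and Ago2KO input. Primitive endoderm markers summed to 71.8 to 94.8 CPM in tagged input and 14.8 to 17.1 CPM in Trim71KO input of experiment 1, with 8 of 10 markers lower. In experiment 2 the sums were 26.8 to 28.7 CPM in tagged, 11.3 to 12.8 CPM in Trim71KO (7 of 9 measured markers lower) and 12.9 to 14.5 CPM in Ago2KO input. The 2 measured of 9 fibroblast markers, Thy1 and Col1a1, summed to 22.6 to 24.5 CPM in tagged and 58.0 to 61.8 CPM in Trim71KO input of experiment 1, and to 34.2 to 35.8 CPM and 49.5 to 51.9 CPM in experiment 2. Both rose in experiment 1 (log2 1.36 for Thy1 and 1.02 for Col1a1), but in experiment 2 only Thy1 was called (0.64), and Col1a1 stood at -0.35. Thy1 made up most of these sums (mean log2 CPM 4.61 and 4.91, against 1.46 and 2.00 for Col1a1). The 2 measured of 6 trophectoderm markers, Tfap2c and Krt7, summed in experiment 2 to 78.4 to 88.5 CPM in tagged, 115 to 132 CPM in Ago2KO and 60.1 to 65.6 CPM in Trim71KO input, where Tfap2c was lower (-0.45, edgeR adjusted p = 3.91e-06). In experiment 1 they summed to 39.8 to 44.0 CPM in tagged and 45.2 to 51.5 CPM in Trim71KO input, with neither called. Both trophectoderm sums were nearly all Tfap2c (mean log2 CPM 5.57 and 6.48, against -0.66 and 1.22 for Krt7), so they follow that gene. In each experiment 5 of 7 mesoderm markers were measured, with Evx1 only in experiment 1 and T only in experiment 2. They summed to 5.91 to 6.77 CPM in tagged and 8.10 to 10.6 CPM in Trim71KO input of experiment 1. In experiment 2 the sums were 12.5 to 13.7 CPM and 13.2 to 16.2 CPM. Among the mesoderm markers Eomes was higher in both experiments (0.67 and 0.38, edgeR adjusted p = 0.00646 and 0.0105). The part of these cells in the level differences of the EMT genes was not tested.

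Tagging itself moved no member's input level past the threshold by edgeR, against 10.6% and 1.39% of genes called in experiments 1 and 2; 2 and 1 members had an unadjusted p below 0.05, and DESeq2 called 1 and 0. The 1 was Epcam in experiment 1 (0.33 by DESeq2, 0.30 by edgeR with an SE of 0.11), which edgeR also called without tagged input replicate 1 (0.44).

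A wider list of 76 other genes of the same processes gives the setting of the 8. Of these, 63 were tested in experiment 1 and 66 in experiment 2. In tag-specific enrichment, 15 were higher and 26 lower in experiment 1 (list median -0.30, all genes -0.10, of which 28.1% were called higher and 28.8% lower), and 12 were higher and 8 lower in experiment 2 (-0.10 against -0.03, with 18.9% of all genes called higher and 8.77% lower). The enriched genes included Rhob, a small GTPase related to Rhoc (3.08 and 2.23), and Cxadr, a tight-junction adhesion receptor (3.43 and 2.25). Axl, a receptor tyrosine kinase, was enriched in experiment 1 (3.23) and the epithelial transcription factor Grhl2 in experiment 2 (1.67). The depleted genes included Krt8, a keratin (-1.59), and Hdac2, a histone deacetylase of repressor complexes (-1.31), in experiment 1, and F11r, a tight-junction protein, in both (-1.30 and -0.61). Among the 27 epithelial genes of the list, 4 were higher and 11 lower in experiment 1, and 4 were higher and 3 lower in experiment 2, to be read against the same shares of all genes.

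In Ago2-dependent enrichment, 3 of the 66 were lower and 0 higher, near the shares of all genes (3.77% lower and 0.384% higher). The 3 were Esrp1, an epithelial splicing regulator (-0.64, SE 0.15), Jup, plakoglobin (-0.47, SE 0.10), and Ctbp1, a corepressor that binds Zeb proteins (-0.33, SE 0.09). Trim71-dependent enrichment was lower for 3 of 63 and higher for 0 in experiment 1, near the 3.47% and 0.272% of all genes, namely Axl (-1.54), Cxadr (-1.23) and Rock2, a kinase of the actin cytoskeleton (-0.52), and in experiment 2 edgeR and DESeq2 each called 0 of 66 (12 had an unadjusted p below 0.05). In Trim71KO input, 17 of 63 were higher and 6 lower in experiment 1 (median 0.11), where 16.5% of all genes were called higher and 17.4% lower. In experiment 2, 21 of 66 were higher and 11 lower (median 0.01), against 13.5% and 13.7% of all genes. The epithelial part of the list had 10 higher and 1 lower of 27 in experiment 1 and 13 higher and 3 lower in experiment 2 (medians 0.25 and 0.32; all genes -0.01 in both), against those same shares. Grhl2 (2.15), Esrp1 (1.35) and Jup (1.24) rose most in experiment 2, where the tight-junction gene Ocln fell by 1.41 on the log2 scale. St14, an epithelial protease (1.34), Thy1 (1.36) and Axl (1.37) rose in experiment 1. Of the EMT transcription factors, 1 was higher and 1 lower of 7 tested in Trim71KO input of experiment 1 (median 0.20). In experiment 2, 0 were higher and 5 lower of 9 (median -0.72). These stand beside 16.5% and 17.4%, and 13.5% and 13.7%, of all genes called higher and lower. Among called genes of the list with a mean log2 CPM of at least 2 and groups that do not overlap, Ocln, Pdgfrb (-1.05) and Marveld3 (-0.78) fell most in experiment 2. Any called transcription factor that fell further was scarcer or had overlapping groups.

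The genes whose log2 CPM was most like each member were ranked by the lower of the Pearson correlations over 18 and 24 libraries, among 12410 genes. These libraries share the IP and input contrast, so the values are a description. Zeb1 was closest to a gene without a symbol (ENSMUSG00000090761, r = 0.99) and to Mmab (0.989), and Rhoc to Ccnd3 (0.984) and Slc25a39 (0.983). Epcam was closest to Cdh1 (0.878) and Lsr (0.875). Cdh1 followed Ccdc47 (0.959) and Nid2, and Snai1 followed Smarcd2 (0.922) and Znrf1 (0.9). Cdh2 (Mpp6, 0.813), Zeb2 (Axin2, 0.801) and Vim (Abcf2, 0.714) had the lowest values.

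Because Epcam and Snai1 were both higher in Trim71KO input of experiment 2 and Snai1 is an E-box repressor, the 250 bases before their annotated starts are shown, from RefSeq (GRCm38.p6). Capitals mark the E-box CAGGTG or its reverse complement CACCTG, searched on both strands.
Epcam (chr17:87635729-87635978, plus strand): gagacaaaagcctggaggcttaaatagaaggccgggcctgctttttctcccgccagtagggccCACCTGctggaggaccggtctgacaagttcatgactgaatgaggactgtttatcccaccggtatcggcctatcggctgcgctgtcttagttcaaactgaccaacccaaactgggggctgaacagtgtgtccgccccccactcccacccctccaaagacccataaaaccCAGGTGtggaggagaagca
Snai1 (chr2:167537945-167538194, plus strand): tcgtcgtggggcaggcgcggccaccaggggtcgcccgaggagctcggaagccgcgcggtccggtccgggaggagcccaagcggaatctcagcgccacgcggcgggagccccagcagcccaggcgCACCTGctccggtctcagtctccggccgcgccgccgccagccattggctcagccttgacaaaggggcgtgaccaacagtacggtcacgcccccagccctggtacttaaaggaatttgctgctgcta
The Epcam window held 2 matches, beginning 187 and 19 bases before the start, and the Snai1 window 1, beginning 126 bases before it. Windows were given for 5 of the members, with 4 starts for Zeb2, and the windows of Vim, Rhoc and Zeb2 held none. Those of Cdh1, Zeb1 and Cdh2 were not analysed here, so Epcam is the 1 epithelial member with a window. Of all 32851 promoter windows of this length, 17.2% held the motif. A match describes these letters only; binding was not measured.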

How the data were processed

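RNA was sequenced from input and HA pulldown of mouse ES cells, in 14 groups of 3 libraries. Libraries were stranded total RNA (TruSeq), per the labels' protocols. The submitters' processing notes name STAR 2.7.3a, bcl2fastq 2.20 and GRCm38/mm10; other steps are not given in the sources used here. The authors deposited, per experiment, raw read counts per gene and RPKM; per the file headers lengths are those of QuasR. The tests used the deposited counts; the deposited RPKM values were not used. All 8 members and all lists were chosen with earlier results of these data known.

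Counts were fitted per experiment with edgeR 4.0.16 (R 4.3.3): filterByExpr, TMM, a mean for each group, glmQLFit and glmQLFTest, and Benjamini-Hochberg adjustment over all genes. Differences between experiments used 1 fit of all 42 libraries. CPM values are counts scaled to a library of 1000000 after TMM. Depth ran from 12587257 to 23657840 counts. No pair of replicates agreed within sampling noise (chi-square per gene 2.87 to 64.1). Only the test of Trim71-dependent enrichment was checked on simulated data, with large changes in genes with high counts. The other tests, small changes and scarce genes were not checked in that way. Alternatives were RLE size factors, library size alone, no filter, DESeq2 1.42.0, only the groups compared, replicate and culture blocks, and leaving out each library. The comparison of IP levels between tagged and untagged cells and the interactions for enrichment were chosen after seeing the data.

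Replicate numbers paired samples where deviations of all 3 same-numbered pairs correlated above 0.1. This held in experiment 2 for tagged with Trim71KO (input, lowest r 0.375; IP, 0.401), tagged with Ago2KO IP (0.119), Trim71KO with Ago2KO IP (0.103) and tagged input with tagged IP (0.131), but not for tagged with Ago2KO input (-0.0145) or any pair with untagged libraries; it held for no pair in experiment 1. Of contrasts that use a paired set of groups, the replicate block changed no member's call in Trim71KO or Ago2KO against tagged levels of experiment 2. It added Cdh1 and Epcam to tag-specific enrichment and Rhoc to Ago2-dependent enrichment there, whose groups were paired in part.

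Genes named outside the 8 followed a rule: the 3 targeted genes; up to 3 called genes each way per comparison from the wider list, largest change, mean log2 CPM of at least 2 and groups that do not overlap; and the 2 genes most like each member. From them the text gives those that bear on the members.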

Additional observations from a re-analysis of the deposited data

Results flagged for a closer look

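Differences between the experiments in the same contrast brought 7 results here, each tested as an interaction in edgeR over all genes. In Trim71KO against tagged input, experiment 1 minus experiment 2, Epcam differed by -0.81 (SE 0.15, adjusted p = 9.88e-05), Vim by -0.41 (adjusted p = 0.00909), Rhoc by -0.42 (adjusted p = 0.0338) and Zeb1 by 0.56 (adjusted p = 0.0409). Epcam was lower in all 3 Trim71KO input libraries of experiment 1 than in each tagged library and higher in all 3 of experiment 2. The Trim71KO libraries of experiment 1 lay within the range of untagged input (47.7 to 54.9 CPM). In tag-specific enrichment, Snai1 differed by 1.67 (adjusted p = 0.00206), Rhoc by 0.65 (adjusted p = 0.0152) and Vim by -0.47 (adjusted p = 0.027). Primitive endoderm markers also differed between the experiments in tagged input, at 71.8 to 94.8 CPM (10 markers) and 26.8 to 28.7 CPM (9 markers) in sum. Their part was not tested.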

How the results depend on the processing

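Over 144 fitted member results, 2392 values were recomputed under other settings, of which 56 lost a call and 49 gained one. The 144 include Snai1 in the enrichment contrasts with Ago2KO. Those Snai1 values are a description without a test, since their input libraries chose the gene. A change of sign occurred in 118 values, none of them called in either fit. The cause of the following changes was not tested. The counts that kept within 1.5 times were those of tag-specific enrichment in experiment 1 (5), Trim71KO input (6) and IP (5) in experiment 2, Ago2KO IP (3), Trim71KO against Ago2KO enrichment (2), Trim71-dependent enrichment in experiment 2 (0) and tagged input in experiment 2 (0). The count of tag-specific enrichment in experiment 2 rose from 3 to 5 with DESeq2, the replicate block and the culture block (IP with input of the same number), and ranged from 3 to 5 over the fits without a library. Ago2-dependent enrichment went from 1 to 2 with DESeq2, the replicate block and the culture block, and from 1 to 2 over the fits without a library. Trim71KO IP in experiment 1 fell from 3 to 1 with library size alone and to 0 with only the groups compared, and ranged from 1 to 3 without a library. Trim71KO input in experiment 1 ranged from 1 to 3 without a library. The difference of the Trim71KO input effect fell from 4 to 2 with library size alone and ranged from 2 to 4 without a library. Tagged input in experiment 1 went from 0 to 1 with DESeq2 and ranged from 0 to 1 without a library. Trim71-dependent enrichment in experiment 1 stayed at 0 with DESeq2 but also ranged from 0 to 1 without a library. The difference of tag-specific enrichment between experiments, added after seeing the data, rose from 3 to 5 with the replicate block and ranged from 2 to 5 without a library. The replicate block changed no other such count by more than 1.5 times. The numbers pair the samples in experiment 2 only in part, and in experiment 1 not at all. The split of calls over all genes moved with scaling: 68.4% of tag-specific calls in experiment 2 were higher, and 36.5% with library size alone. For Trim71KO IP in experiment 1 the share was 40.5%, and 63.3% with library size alone. Low counts limit Zeb2, Cdh2 and Snai1, whose SE values in enrichment were the widest of the set.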
